A study of Rattus norvegicus with 72 samples.

Results

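The chemokine ligands are the small secreted or membrane-bound proteins that steer leukocytes, and they were taken here as every gene of the count table whose symbol begins with Ccl, Cxcl, Xcl or Cx3cl followed by a number. This rule uses no measured value and finds 34 of the 30042 genes, and each of the 34 had at least 1 count somewhere. The RNA came from the lungs of 72 male rats, adults of the outbred Sprague-Dawley strain, with 1 library per animal. The rats breathed filtered air or diesel exhaust particles (DEP), the soot of diesel engines, by whole-body inhalation at 200 or 1000 ug/m3 for 6 hours per day over 4 days. The lungs were taken 1, 7 or 27 days after the last exposure.

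The 12 groups hold 6 animals each. At every time there were lungs exposed to 1000 ug/m3, air lungs whose titles carry the letter H, lungs exposed to 200 ug/m3, and air lungs whose titles carry the letter L. The letter H goes with 1000 ug/m3 and the letter L with 200 ug/m3 in the titles of the exposed animals, so each exposed group was set against the air group of its own letter and day. What else the letters stand for is not given in the labels, and dose and set of animals cannot be told apart between the H and L sets. In each H group, animals numbered up to 024 form a first animal number series and those from 025 on a second, smaller one. What these series stand for is not labelled either. The tissue was a piece of whole lung, so a lower value can come from fewer cells of a type or from less RNA per cell, and these cannot be told apart.

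Total counts per library were 1042336 to 2397971 at day 1, 3471134 to 6279763 at day 7 and 3761631 to 6520180 at day 27, apart from 3 libraries of the 1000 ug/m3 groups. These were animal 037 at day 7 with 105453 counts and animals 024 and 045 at day 27 with 439393 and 149004 counts. A single count was worth 8.64 CPM (the usual count scaled to library size, here with the TMM factors of edgeR) in animal 037, 2.23 CPM in animal 024 and 6.23 CPM in animal 045, against 0.154 to 0.948 CPM in the other libraries. Lung identity was clear, since Sftpc, the surfactant protein C of type II pneumocytes, ranged over 2863 to 9277 CPM. Marco, a scavenger receptor of alveolar macrophages, had 3 counts and Col1a2, a collagen chain of fibroblasts, had 20 counts over all 72 libraries, so a low count of a symbol in this table does not show that the gene is silent.

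Chemokines act by binding G protein-coupled receptors on leukocytes, which then move up the gradient of the ligand. Inflammatory members are switched on in epithelium, macrophages and endothelium by cytokines, interferon or microbial products, largely through the transcription factor NF-kB, while homeostatic members are made steadily and place lymphocytes, dendritic cells and progenitors in resting tissue. In the lung, inhaled particles are a textbook stimulus for the neutrophil and monocyte attractants.

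Promoters of 4 members are shown because they carry the comparisons that follow. Cx3cl1 and Cxcl17 were the members called between the animal sets at day 7 in air and in exposed lungs alike, Cxcl10 had the smallest p in the pooled exposure comparison, and Cxcl1 is the classical particle-induced neutrophil attractant. Each is the 250 bases before the annotated start, from RefSeq on the rat assembly GRCr8, written 5′ to 3′ on the gene's strand. Capitals mark matches on either strand to 4 motifs, which are NF-kB (GGG, then any 5 bases, then CC), the TATA box (TATAAA), AP-1 (TGANTCA) and the interferon response element (GAAA, then any 2 bases, then GAAA again).
Cx3cl1 at chr19:10242821-10243070, minus strand: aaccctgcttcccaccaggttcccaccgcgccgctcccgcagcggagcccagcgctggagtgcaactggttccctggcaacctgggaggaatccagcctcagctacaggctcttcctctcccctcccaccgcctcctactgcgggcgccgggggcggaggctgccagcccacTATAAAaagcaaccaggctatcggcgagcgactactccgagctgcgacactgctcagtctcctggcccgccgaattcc
Cxcl17 at chr1:90124536-90124785, minus strand: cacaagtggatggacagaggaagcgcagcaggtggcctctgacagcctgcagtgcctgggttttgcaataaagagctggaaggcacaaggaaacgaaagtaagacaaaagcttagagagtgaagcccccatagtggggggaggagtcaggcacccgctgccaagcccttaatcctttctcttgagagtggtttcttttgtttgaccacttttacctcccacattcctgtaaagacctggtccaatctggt
Cxcl10 at chr14:15988816-15989065, plus strand: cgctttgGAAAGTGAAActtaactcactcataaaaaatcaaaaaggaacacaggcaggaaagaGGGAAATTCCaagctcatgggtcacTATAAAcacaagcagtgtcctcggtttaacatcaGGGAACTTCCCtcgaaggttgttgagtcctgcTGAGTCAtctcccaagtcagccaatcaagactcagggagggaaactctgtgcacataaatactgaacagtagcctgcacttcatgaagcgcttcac
Cxcl1 at chr14:17479322-17479571, minus strand: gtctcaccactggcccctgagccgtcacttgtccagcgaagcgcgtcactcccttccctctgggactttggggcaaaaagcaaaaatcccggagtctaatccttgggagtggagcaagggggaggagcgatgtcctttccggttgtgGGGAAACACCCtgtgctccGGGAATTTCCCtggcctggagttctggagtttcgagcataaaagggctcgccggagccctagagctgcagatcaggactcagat
The Cxcl10 window holds all 4 motifs, with the interferon element farthest from the start, and its second NF-kB stretch is a match on both strands that overlap. In the Cxcl1 window both capitalised stretches are NF-kB matches on both strands, again overlapping. The Cx3cl1 window holds a TATA box 78 bases before the start and no match to the other 3 motifs. None of the 4 motifs lies in the Cxcl17 window. Of the 28 members with a promoter in the table, 17 hold the NF-kB letters (60.7%), against 42.3% of all 33469 promoters. The TATA box was found in 9 of the 28 (32.1%), against 12.9% of all promoters. AP-1 letters were found in 4 (14.3% against 6.34%) and the interferon element in 2 (7.14% against 3.41%). These are matches of letters, not sites.

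In resting lung, meaning the 36 air lungs of both sets, 18 of the 34 members had enough counts to be tested. In the fits by day, which hold 24 air and exposed libraries each, 12 were tested at day 1, 17 at day 7 and 19 at day 27, and 12 of them at every time. The 15 members tested on no day had between 1 and 329 counts over all 72 libraries. Levels are given per gene, as the lowest, median and highest CPM, and are not ranked between genes, because no transcript lengths were at hand.

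Among the neutrophil attractants, which carry the ELR motif and act on the receptor Cxcr2, Cxcl3 stood at 225, 418 and 588 CPM in the air lungs. Cxcl1 stood at 1.98, 13.8 and 28.3 CPM. Cxcl6, known in rodents as a granulocyte attractant of stromal and epithelial cells, had 0, 0.798 and 3.91 CPM, and Cxcl2 had 0, 0.547 and 4.00 CPM. Cxcl3 alone took 43.4% of all chemokine counts in air lungs, a share that also depends on transcript length, while its close relatives Cxcl1 and Cxcl2 took 1.5% and 0.0589%. Cxcl1, Cxcl2 and Cxcl3 are related paralogs, and whether the counting shared any reads among them is not known. The genes of all 3, with Cxcl6, Cxcl9, Cxcl10, Cxcl11 and Cxcl13, lie on chromosome 14 of the annotation.

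The interferon-induced ligands of Cxcr3, which draw activated T cells and NK cells, were low. Cxcl10 had 0, 1.53 and 4.54 CPM, Cxcl9 had 0, 1.47 and 3.68 CPM, and Cxcl11 had 23 counts over all 72 libraries. The monocyte attractants that act on Ccr2 were also low, with 0.688, 3.02 and 10.2 CPM for Ccl2 and 0, 1.29 and 4.11 CPM for Ccl7. Ccl12, a Ccr2 ligand known from the mouse, had 0, 0.333 and 2.64 CPM.

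The macrophage and lymphocyte products among the Ccl members differed widely in their reads. Ccl6, a macrophage and myeloid product described in the mouse, had 52.9, 88.7 and 170.2 CPM, and its relative Ccl9, also a Ccr1 ligand of the mouse, had 1.84, 6.17 and 15.9 CPM. Ccl5, a product of T and NK cells, had 9.83, 20.8 and 34.5 CPM. Ccl3 and Ccl4, the macrophage inflammatory proteins, had 0.615, 4.34 and 10.02 CPM and 0, 2.66 and 4.99 CPM. Ccl6 and Ccl5 were thus read in every air lung, while Ccl4 was at 0 in at least 1 of them.

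The eosinophil attractants act on Ccr3. Ccl11, the first eotaxin, had 2.67, 14.5 and 22.9 CPM and Ccl24 had 0.799, 2.43 and 5.3 CPM, while Ccl26 had 2 counts in the whole table. Of the ligands that draw dendritic cells and helper T cells, Ccl17 and Ccl22, which share the receptor Ccr4, had medians of 0.768 and 0.457 CPM. Ccl20, the Ccr6 ligand, had a median of 0.692 CPM, and Ccl1, the Ccr8 ligand, had 9 counts in the whole table.

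Ccl21, the lymphatic ligand of Ccr7 that guides dendritic cells and naive T cells to lymph nodes, had 55, 76.2 and 101 CPM. The other Ccr7 ligand, Ccl19, had 0.257, 0.971 and 4.74 CPM, and the B cell attractant Cxcl13 had 0.228, 0.957 and 2.66 CPM. Cxcl12, the stromal and endothelial ligand of Cxcr4 that retains progenitors and lymphocytes, had 67.2, 111 and 167 CPM. Cxcl14, a constitutive product of epithelium and stroma, had 31.1, 47.3 and 73.6 CPM, and Cxcl17, a mucosal chemokine of the airways, had 32, 62.3 and 85.1 CPM.

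Both transmembrane chemokines were read in every air lung. Cxcl16, which binds Cxcr6 and scavenges oxidised lipoprotein, had 59.7, 82.2 and 101 CPM. Cx3cl1, or fractalkine, the ligand of Cx3cr1 on monocytes and NK cells, had 10.7, 27.1 and 45.3 CPM. Ccl27, a Ccr10 ligand best known from skin, had 0, 1.73 and 3.01 CPM, and Ccl28, the other Ccr10 ligand, had 31 counts in the whole table. Ccl25, the Ccr9 ligand of thymus and gut, had 1 count, and Xcl1, which draws cross-presenting dendritic cells, had a median of 0.994 CPM.

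**Figure D1:**
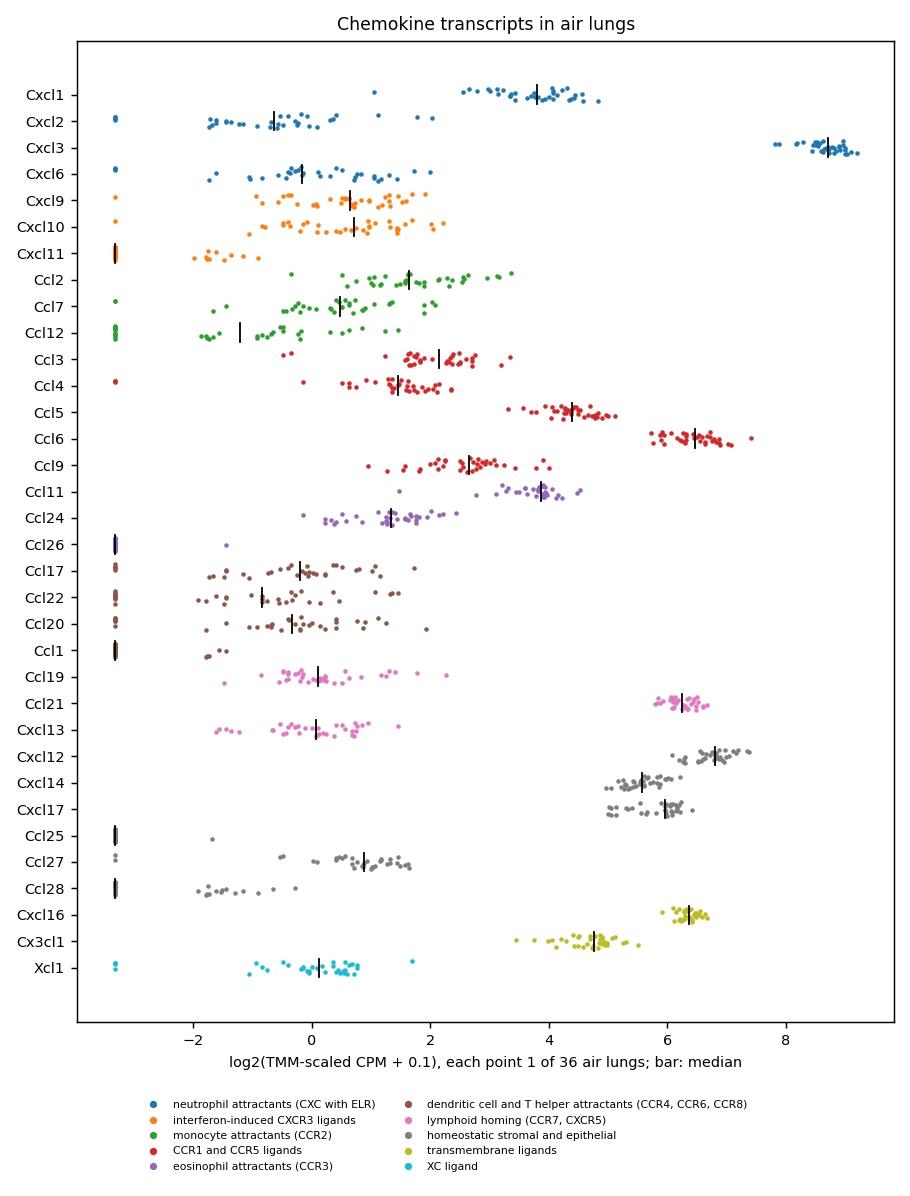
Each row is 1 of the 34 chemokine genes and each point 1 of 36 air lungs, on a log2 axis of TMM-scaled CPM plus 0.1, coloured by the role of the gene, with a bar at the median. Cxcl3 lies to the right with a median of 418 CPM, and points at the left edge are lungs with no count.

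Exposure to DEP did not move any chemokine past the test at either dose or any time. Adjusted p-values here and below come from edgeR's quasi-likelihood test with Benjamini-Hochberg adjustment over all genes tested, with 0.05 as the threshold. The test weighs a difference between groups against the spread between animals. For 1000 ug/m3 against air H, 0 of 12 members were called at day 1, 0 of 17 at day 7 and 0 of 19 at day 27, where 0% of all genes tested were called at each time. For 200 ug/m3 against air L, 0 of 12, 0 of 17 and 0 of 19 were called, against 0%, 0.00698% and 0% of all genes. The difference between the effects of the doses was past the test for 0 members at every time, against 0.00813%, 0% and 0% of all genes, and at an unadjusted p under 0.05 for 2, 0 and 3 members, against 4.36%, 5.21% and 13.3% of all genes. DESeq2 also called 0 members in each of these 9 comparisons.

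At an unadjusted p under 0.05, 1 member at day 1, 0 at day 7 and 3 at day 27 stood apart in 1000 ug/m3 lungs, where 3.41%, 4.39% and 7% of all genes did. In 200 ug/m3 lungs the counts were 1, 1 and 2, where 6.02%, 5.71% and 9.69% of all genes did. The median log2 fold change of the tested members was -0.09, 0.10 and -0.04 for 1000 ug/m3 at days 1, 7 and 27, and -0.05, -0.03 and 0.02 for 200 ug/m3. Over all genes tested these medians lay between -0.0012 and 0.0013. A change of 2-fold in either direction lay outside the 95% interval of 11 of 12, 15 of 17 and 13 of 19 members for 1000 ug/m3 at days 1, 7 and 27, and of 9 of 12, 16 of 17 and 16 of 19 for 200 ug/m3. For the rest a 2-fold change was not excluded at this depth and number of animals.

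The member with the smallest p in each comparison is given as a value only. At day 1, Cxcl1 had 4.42, 7.33 and 9.48 CPM (lowest, median and highest) in 1000 ug/m3 lungs and 6.19, 12.6 and 19.6 CPM in air H lungs (log2 fold change -0.86, SE 0.36, adjusted p = 1.000). All 6 exposed lungs lay below the air H median, though the groups overlapped, and the estimate is for a lower level of this neutrophil attractant. Ccl21 had 75.9, 88.9 and 101 CPM in 200 ug/m3 lungs at day 1 and 65.5, 71.9 and 87 CPM in air L lungs (log2 fold change 0.26, SE 0.11, adjusted p = 0.794), again with overlap.

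At day 7, Ccl9 had 7.81, 8.65 and 25.9 CPM in 1000 ug/m3 lungs and 3.88, 6.26 and 9.35 CPM in air H lungs (log2 fold change 0.53, SE 0.27, adjusted p = 1.00). The highest value, 25.9 CPM, was 3 counts in the shallow library of animal 037, and without the 3 shallow libraries the log2 fold change was 0.49. Cx3cl1 had 19.8, 25.7 and 31.7 CPM in 200 ug/m3 lungs at day 7 and 28.6, 30.9 and 39.4 CPM in air L lungs (log2 fold change -0.32, SE 0.13, adjusted p = 0.801), and the groups overlapped.

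At day 27, Ccl11 had 2.23, 19.4 and 26.8 CPM in 1000 ug/m3 lungs and 6.7, 14.2 and 17.7 CPM in air H lungs (log2 fold change 0.76, SE 0.24, adjusted p = 0.591). Leaving out the shallow libraries gave 0.84 (adjusted p = 0.514), and leaving out each animal in turn gave 0.63 to 0.88 (adjusted p-values of 0.373 to 0.941). Ccl6 had 31.3, 70.6 and 86.1 CPM in 200 ug/m3 lungs and 61.2, 117 and 134 CPM in air L lungs (log2 fold change -0.75, SE 0.23, adjusted p = 0.368). All 6 exposed lungs were below the air L median of Ccl6. The summed level of the 11 alveolar macrophage markers was 471 to 853 CPM (median 759) in 200 ug/m3 lungs and 682 to 977 CPM (median 786) in air L lungs. The part of that list in the Ccl6 values was not tested.

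Ccl5, the T and NK cell product, was read lower in 1000 ug/m3 lungs than in air H lungs of day 27 but was not called. It had 17.8, 21.1 and 24.5 CPM in 1000 ug/m3 lungs and 25.1, 29.1 and 34.5 CPM in air H lungs (log2 fold change -0.39, SE 0.13, adjusted p = 0.592), and these values did not overlap. Without the 2 shallow libraries of that group, the exposed values ran from 20.6 to 24.5 CPM and still lay below the air H values. Ccl5 is described because no other member had values without overlap in any of the 6 exposure comparisons. The share of all genes without overlap was not counted, so this gap is given as a value only. The direction was not shared with the other dose, where Ccl5 averaged 27.2 ± 4.13 CPM in 200 ug/m3 lungs and 24 ± 5.4 CPM in air L lungs (SD, n = 6 each), and the difference between the doses missed the threshold (log2 difference of the effects -0.58, SE 0.18, adjusted p = 0.200). NK and cytotoxic markers summed to 139 to 166 CPM over 9 genes in 1000 ug/m3 lungs at day 27 and 158 to 193 CPM in air H lungs, and their part in the Ccl5 values was not tested. Among the 12 groups, the air H lungs of day 27 had the highest Ccl5 mean, 29.4 CPM. The mean of 21.1 CPM in the 1000 ug/m3 lungs of day 27 lay within the group means of days 1 and 7, 15.6 to 22.9 CPM. The lowest of these, 15.6 CPM, was that of the 1000 ug/m3 lungs of day 7, which hold the shallow library of animal 037. Without the shallow libraries the 1000 ug/m3 means were 18.7 CPM at day 7 and 22.5 CPM at day 27.

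All exposed lungs against all air lungs, 36 against 36 with set and day as a block, gave 0 of 19 members called, against 0.0134% of all genes. The interval excluded a 2-fold change for each of the 19. Cxcl10 was the only member with an unadjusted p under 0.05, or 1 of 19, where 4.23% of all genes were, and its estimate was lower in exposed lungs (log2 fold change -0.56, SE 0.18, adjusted p = 0.873). Its median was 1.32, 0.825 and 1.07 CPM at days 1, 7 and 27 in 1000 ug/m3 lungs, 1.34, 0.649 and 1.61 CPM in air H lungs, 1.06, 1.13 and 0.945 CPM in 200 ug/m3 lungs and 2.44, 2.13 and 1.19 CPM in air L lungs. These levels are a few counts per library, and Cxcl10 had 327 counts over all 72. Cxcl3, the member with the most counts, had a pooled log2 fold change of -0.04 (95% interval -0.15 to 0.06), and Cxcl16 had 0.04 (-0.03 to 0.10).

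**Figure D2:**
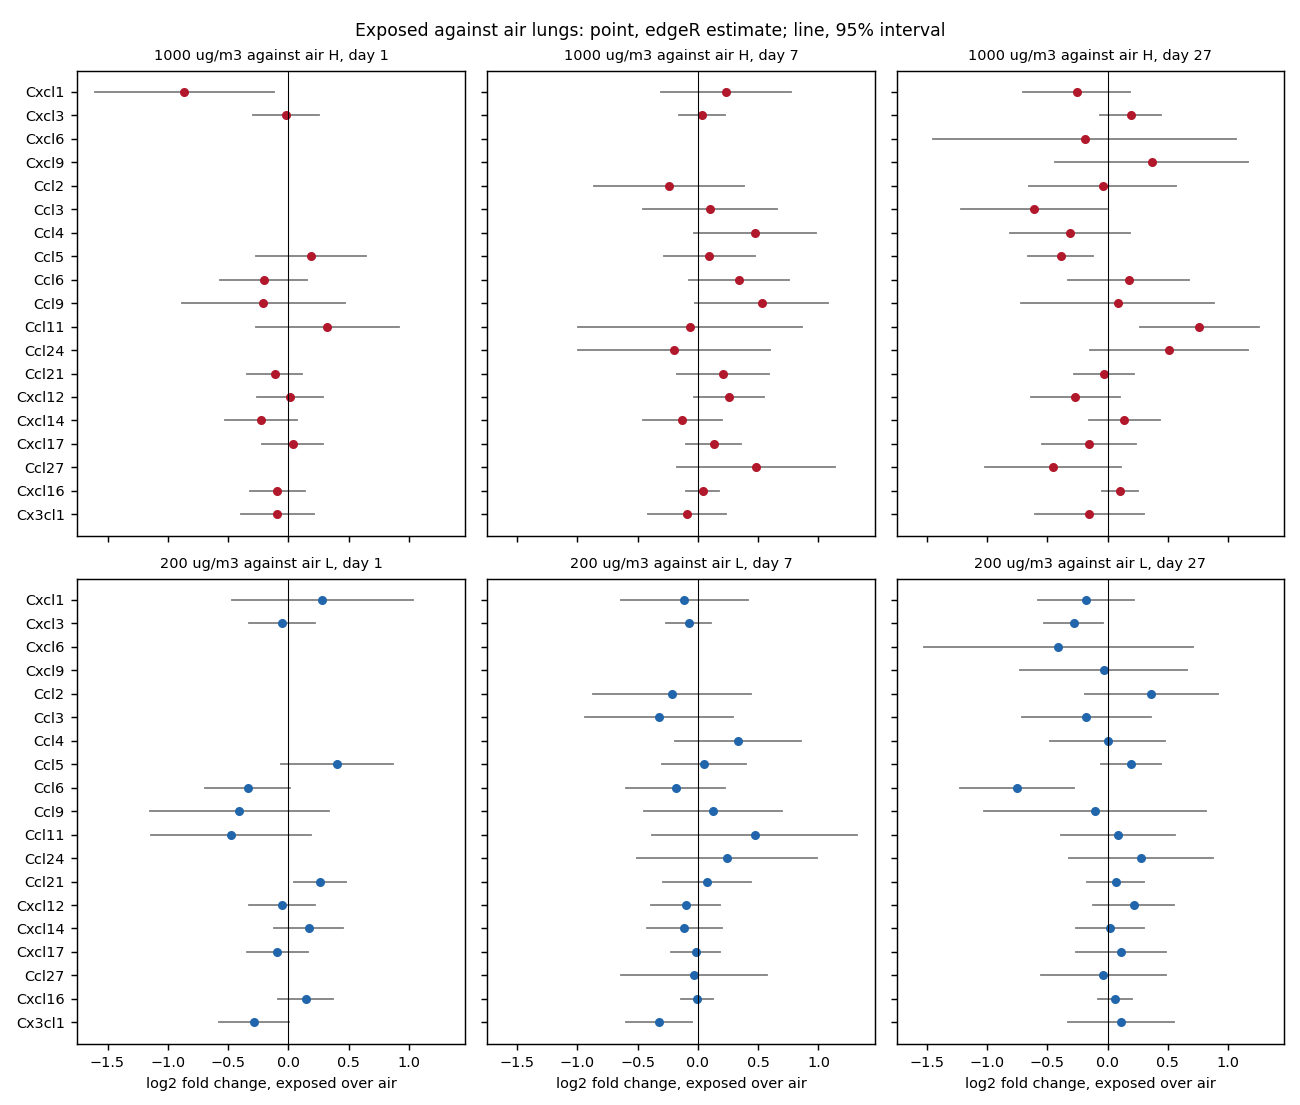
Log2 fold changes of exposed over air lungs for each member tested, in the 6 comparisons of dose and day, with edgeR estimates as points and 95% intervals as lines. Estimates run from -0.86 for Cxcl1 to 0.76 for Ccl11, and no member passed the adjusted threshold.

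Between the sets of animals, single chemokines did pass the test. At day 7, 2 of 17 members were called between the air lungs of both sets, and both were lower in air H lungs, where 15.2% of all genes were called lower and 25.5% in either direction. Cx3cl1 had 10.7, 16.1 and 19.4 CPM in air H lungs and 28.6, 30.9 and 39.4 CPM in air L lungs, with no overlap (log2 fold change -1.07, SE 0.14, adjusted p = 5.64e-07). Cxcl17 had 32.3, 37.2 and 42 CPM in air H lungs and 62.2, 68.5 and 85.1 CPM in air L lungs, also without overlap (log2 fold change -0.91, SE 0.10, adjusted p = 5.01e-08). The share of members called was below the share of all genes, so the family as a whole did not stand out.

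The exposed lungs of day 7, which are other animals, differed in the same direction. Cx3cl1 had 8.64, 13.3 and 21.1 CPM in 1000 ug/m3 lungs and 19.8, 25.7 and 31.7 CPM in 200 ug/m3 lungs (log2 fold change -0.84, SE 0.15, adjusted p = 6.95e-05). Cxcl17 had 25.3, 43.1 and 49.2 CPM in 1000 ug/m3 lungs and 64.1, 67.2 and 77.8 CPM in 200 ug/m3 lungs (log2 fold change -0.76, SE 0.11, adjusted p = 2.37e-06). Every 1000 ug/m3 lung lay below every 200 ug/m3 lung for Cxcl17, while for Cx3cl1 a single 1000 ug/m3 lung, animal 013 at 21.1 CPM, lay above the lowest 200 ug/m3 lung at 19.8 CPM. Leaving out the 3 shallow libraries gave log2 fold changes of -0.82 for Cx3cl1 and -0.75 for Cxcl17.

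Neither gene showed such a gap between the sets at the other times. At day 1, Cx3cl1 averaged 24.7 ± 3.07 CPM in air H lungs and 30.3 ± 3.12 CPM in air L lungs, and Cxcl17 averaged 63 ± 9.98 CPM in air H lungs and 68 ± 4.27 CPM in air L lungs (SD, n = 6 each). At day 27 the order was turned round, with Cx3cl1 at 30.8 ± 7.97 CPM in air H lungs and 24 ± 4.13 CPM in air L lungs. Cxcl17 at day 27 averaged 59.5 ± 10.5 CPM in air H lungs and 46.7 ± 15.9 CPM in air L lungs. None of these 4 differences passed the test at its own day.

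In exposed lungs of day 1, Cx3cl1 averaged 23 ± 2.94 CPM at 1000 ug/m3 and 25.1 ± 5.25 CPM at 200 ug/m3, and Cxcl17 averaged 64.1 ± 7.24 CPM at 1000 ug/m3 and 63.8 ± 15.4 CPM at 200 ug/m3 (SD, n = 6 each). At day 27, Cx3cl1 averaged 24.1 ± 9.3 CPM in 1000 ug/m3 lungs, or 28 ± 8.54 CPM in the 4 lungs of normal depth, and 26 ± 7.96 CPM in 200 ug/m3 lungs. Cxcl17 averaged 46.2 ± 17.9 CPM in 1000 ug/m3 lungs, or 55.7 ± 11.3 CPM in those 4, and 49.9 ± 5.54 CPM in 200 ug/m3 lungs.

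Markers of the cells that make these chemokines were read beside them. Vascular endothelial markers, 7 genes in all, summed to 3286 to 3859 CPM in air H lungs of day 7 and 3998 to 4519 CPM in air L lungs. Airway epithelial markers, 9 genes, summed to 1411 to 2078 CPM in air H lungs and 1850.1 to 2859 CPM in air L lungs. In the fit, 1 of the 7 endothelial markers was called higher and 2 lower in air H lungs, and of the airway list 0 of 7 tested genes were higher and 1 was lower. Kdr, the endothelial receptor for vascular growth factor, was lower (log2 fold change -1.10, SE 0.08, adjusted p = 4.08e-11), as was Scgb1a1, the club cell secretoglobin (log2 fold change -0.79, SE 0.22, adjusted p = 0.0100). Of the other endothelial markers, Cldn5 was higher (log2 fold change 0.49, SE 0.08, adjusted p = 5.69e-05) and Cdh5 was lower (log2 fold change -0.60, SE 0.09, adjusted p = 3.03e-06). Within groups, over the 69 animals of normal depth, Cxcl17 and 7 airway markers had r = -0.19 and rho = -0.22, with adjusted permutation p-values of 0.391 and 0.237, and r was -0.42, -0.04 and -0.26 within days 1, 7 and 27. The part of the endothelial markers in the Cx3cl1 difference was not tested.

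**Figure D3:**
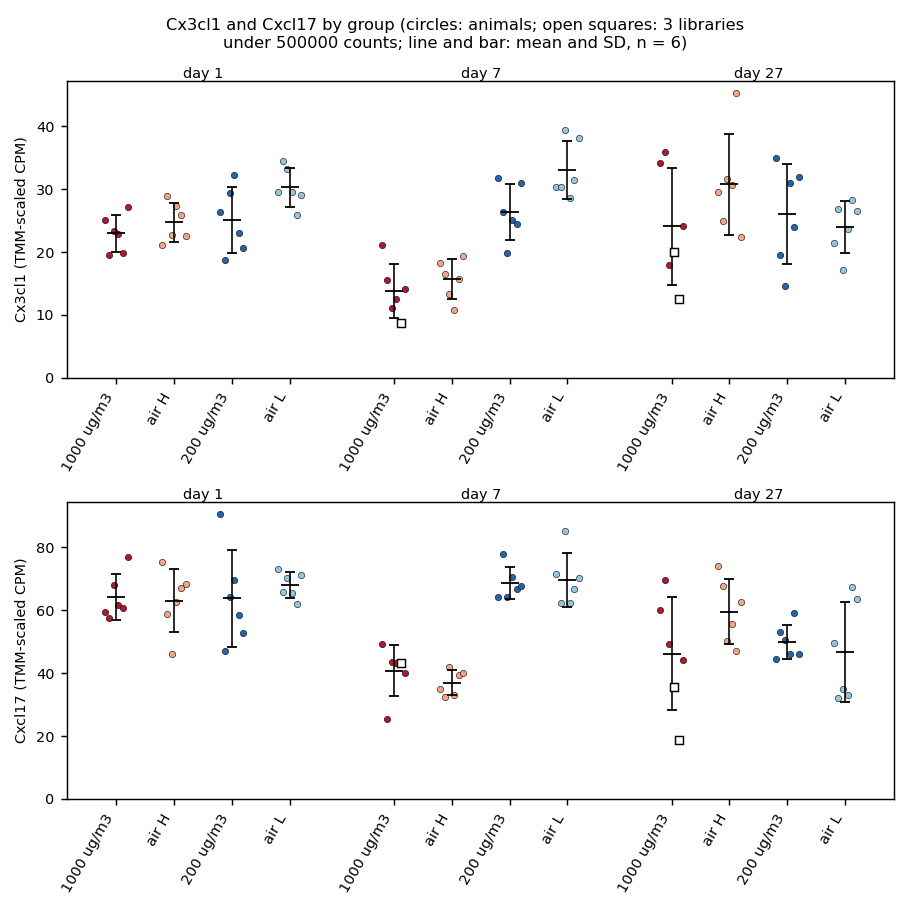
TMM-scaled CPM of Cx3cl1 (top) and Cxcl17 (bottom) in the 12 groups, 1 point per animal, with mean and SD of 6 and open squares for the 3 shallow libraries. At day 7 both H groups lie low, with means of 13.8 and 15.7 CPM for Cx3cl1 in 1000 ug/m3 and air H lungs, against 26.4 and 33.1 CPM in 200 ug/m3 and air L lungs.

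Other members differed between the exposed lungs of the sets at day 7, where 4 of 17 were called, against 27.9% of all genes, and 6 of 17 had an unadjusted p under 0.05, against 38.3%. Cx3cl1 and Cxcl17 were the lower ones in 1000 ug/m3 lungs, where 16.2% of all genes were called lower. Ccl6 and Ccl3 were higher there, where 11.7% of all genes were called higher. Ccl6 had 101, 143 and 152 CPM in 1000 ug/m3 lungs and 66.1, 75.6 and 99.4 CPM in 200 ug/m3 lungs, with no overlap (log2 fold change 0.71, SE 0.20, adjusted p = 0.0118). Ccl3 had 0, 5.52 and 9.16 CPM in 1000 ug/m3 lungs and 1.27, 3.13 and 5.01 CPM in 200 ug/m3 lungs (log2 fold change 0.97, SE 0.29, adjusted p = 0.0131). The 0 of Ccl3 was the shallow library of animal 037, and the other 5 lungs averaged 6.39 ± 1.64 CPM. Ccl3 lost its call without animal 015, with an adjusted p of 0.0542, while over all fits that left out 1 animal its adjusted p ran from 0.00633 to 0.0542.

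Ccl6 and Ccl3 were not called between the air lungs of day 7. Ccl6 averaged 103 ± 34.6 CPM in air H lungs and 91.4 ± 23.4 CPM in air L lungs, and Ccl3 averaged 5.83 ± 2.32 CPM in air H lungs and 3.99 ± 1.36 CPM in air L lungs (SD, n = 6 each). The effect of 1000 ug/m3 minus that of 200 ug/m3 on Ccl6 was 0.53 on the log2 scale without the shallow libraries, with an adjusted p of 0.903, and it also missed the threshold in all 24 libraries of that day. The alveolar macrophage list summed to 613 to 934 CPM (median 836) in 1000 ug/m3 lungs and 766 to 923 CPM (median 796) in 200 ug/m3 lungs, with 0 of 10 tested markers higher and 1 lower. Of the 7 tested interstitial macrophage and monocyte markers 1 was higher and 1 lower. The higher one was C1qc, a complement gene of tissue macrophages (log2 fold change 0.51, SE 0.14, adjusted p = 0.00645), and the lower one was Lyve1 (log2 fold change -0.47, SE 0.15, adjusted p = 0.0198). The part of these markers in the Ccl6 difference was not tested.

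**Figure D4:**
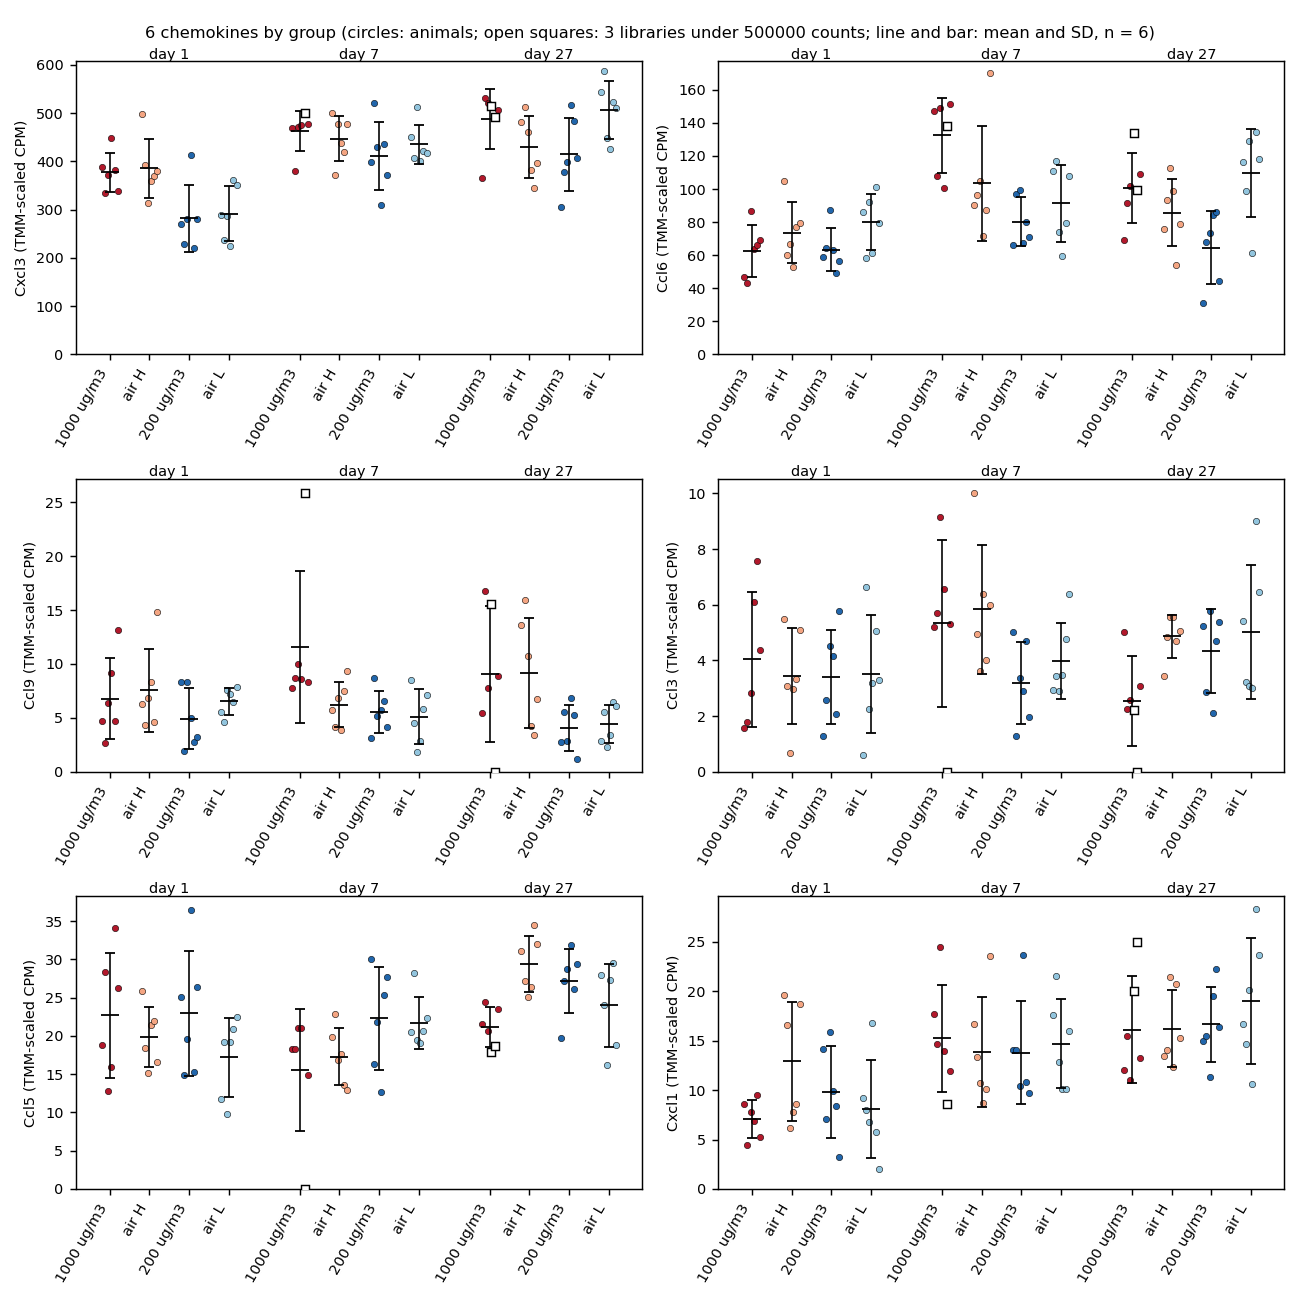
TMM-scaled CPM of Cxcl3, Ccl6, Ccl9, Ccl3, Ccl5 and Cxcl1 in the 12 groups, 1 point per animal, with mean and SD of 6 and open squares for the 3 shallow libraries. Ccl6 at day 7 averages 132 CPM in 1000 ug/m3 lungs and 80.1 CPM in 200 ug/m3 lungs, and Ccl5 at day 27 averages 21.1 CPM in 1000 ug/m3 lungs and 29.4 CPM in air H lungs.

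At days 1 and 27 no member was called between the sets. The counts were 0 of 12 and 0 of 19 between air H and air L lungs, against 1.68% (0.829% higher and 0.853% lower) and 14% of all genes, and 0 of 12 and 0 of 19 between 1000 and 200 ug/m3 lungs, against 0% and 0% of all genes. DESeq2 called 1 member between the air lungs of day 27, and unadjusted p-values under 0.05 were reached by 2 of 12 and 3 of 19 members between air lungs (19.8% and 28.3% of all genes) and by 4 of 12 and 6 of 19 between exposed lungs (12.5% and 7.36% of all genes). Cxcl3 had the smallest p between air lungs of day 1, with 314, 375 and 499 CPM in air H lungs and 225, 288 and 362 CPM in air L lungs (log2 fold change 0.39, SE 0.13, adjusted p = 0.105). Ccl9 had it at day 27, with 3.45, 8.74 and 15.9 CPM in air H lungs and 2.32, 4.5 and 6.43 CPM in air L lungs (log2 fold change 1.07, SE 0.40, adjusted p = 0.0737). Ccl21 was the member with the smallest p between exposed lungs of day 1, with 53.3, 67.3 and 76 CPM in 1000 ug/m3 lungs and 75.9, 88.9 and 101 CPM in 200 ug/m3 lungs (log2 fold change -0.44, SE 0.11, adjusted p = 0.173). At day 27 it was Ccl9 again (log2 fold change 1.26, SE 0.43, adjusted p = 0.478).

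Air lungs of different days were compared within each set, in a fit of the 36 air libraries. In air H lungs of day 7 against day 1, Cx3cl1 (log2 fold change -0.65, SE 0.16, adjusted p = 0.00118), Cxcl17 (log2 fold change -0.77, SE 0.16, adjusted p = 2.67e-04) and Cxcl14 (log2 fold change -0.32, SE 0.12, adjusted p = 0.0336) were lower. Cxcl16 was higher (log2 fold change 0.24, SE 0.08, adjusted p = 0.0163). These are 4 of 18 members, where 38.8% of all genes were called. Cxcl14 lost its call without scaling factors, without a filter and with all 72 libraries in the fit, where adjusted p-values were 0.0791 to 0.0996. Day 1 libraries were also the shallower ones, and day and depth cannot be told apart there.

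In air H lungs of day 27 against day 7, 4 of 18 members were called, where 29.9% of all genes were. Cx3cl1 (log2 fold change 0.95, SE 0.13, adjusted p = 3.40e-07), Cxcl17 (log2 fold change 0.69, SE 0.14, adjusted p = 3.29e-04) and Ccl5 (log2 fold change 0.75, SE 0.14, adjusted p = 3.94e-05) were higher, and Ccl2 was lower (log2 fold change -0.83, SE 0.32, adjusted p = 0.0483). Ccl5 averaged 29.4 ± 3.68 CPM in air H lungs of day 27 and 17.3 ± 3.75 CPM in those of day 7 (SD, n = 6 each). Ccl2, with a median of 2.79 CPM in air H lungs of day 27 and 4.9 CPM in those of day 7, lost its call with DESeq2, limma-voom, non-robust dispersions, no filter and a filter of 1 CPM, where adjusted p-values were 0.0522 to 0.0668.

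In air L lungs, at day 7 against day 1, Ccl4 (log2 fold change 1.41, SE 0.48, adjusted p = 0.0378) and Cxcl3 (log2 fold change 0.56, SE 0.11, adjusted p = 4.63e-04) were higher, or 2 of 18 members where 16.3% of all genes were called. At day 27 against day 7, Cx3cl1 (log2 fold change -0.46, SE 0.13, adjusted p = 0.00904), Cxcl17 (log2 fold change -0.57, SE 0.14, adjusted p = 0.00377) and Cxcl14 (log2 fold change -0.43, SE 0.11, adjusted p = 0.00421) were lower, or 3 of 18 where 19.6% were. Ccl4 lost its call with DESeq2 and limma-voom, with adjusted p-values of 0.0619 and 0.068.

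The change of Cx3cl1 and Cxcl17 from time to time itself differed between the sets, in a test added after the day comparisons were seen. For day 27 against day 7, the H change minus the L change was a difference of 1.40 on the log2 scale, SE 0.19, adjusted p = 6.15e-08 for Cx3cl1. For Cxcl17 it was a difference of 1.26 on the log2 scale, SE 0.20, adjusted p = 6.80e-06. Cxcl10, Ccl5 and Cxcl14 also passed for this pair of days, with differences of 1.8, 0.60 and 0.43, which makes 5 of 18 members, against 32.6% of all genes. For day 7 against day 1, Cx3cl1 and Cxcl17 passed with differences of -0.77 and -0.79, or 2 of 18 members against 20.9% of all genes.

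Over all 12 groups at once, 14 of 19 members differed by an F test in the fit of 72 libraries, against 58.5% of all genes. They were Ccl2, Ccl3, Ccl4, Ccl5, Ccl6, Ccl9, Cx3cl1, Cxcl1, Cxcl3, Cxcl10, Cxcl12, Cxcl14, Cxcl16 and Cxcl17. Ccl11, Ccl21, Ccl24, Ccl27 and Cxcl9 were not called. Leaving out the 3 shallow libraries let 22 members be tested, of which 16 were called, the 14 above with Ccl7 and Ccl19. With limma-voom 11 of 19 were called, and Ccl2, Ccl3 and Cxcl10 lost their calls.

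Group medians of the remaining described members are given for days 1, 7 and 27 in this order. For Cxcl3, they were 377, 473 and 510.4 CPM in 1000 ug/m3 lungs, 375, 458 and 429 CPM in air H lungs, 275, 414 and 403 CPM in 200 ug/m3 lungs and 288, 419.5 and 517 CPM in air L lungs. Single lungs ran from 221 to 588 CPM, and the lowest group medians were those of the L set at day 1. Cxcl1 had medians of 7.33, 14.3 and 14.3 CPM in 1000 ug/m3 lungs, 12.6, 12 and 14.6 CPM in air H lungs, 9.15, 12.4 and 15.9 CPM in 200 ug/m3 lungs and 7.38, 14.4 and 18.4 CPM in air L lungs. In each of the 4 series the day 1 median of Cxcl1 was below that of day 27.

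Ccl6 medians were 65.2, 143 and 101 CPM in 1000 ug/m3 lungs, 71.8, 93.2 and 86.2 CPM in air H lungs, 61, 75.6 and 70.6 CPM in 200 ug/m3 lungs and 82.9, 93.8 and 117 CPM in air L lungs. Ccl9 medians were 5.56, 8.65 and 8.31 CPM in 1000 ug/m3 lungs, 6.57, 6.26 and 8.74 CPM in air H lungs, 4.09, 5.48 and 4.06 CPM in 200 ug/m3 lungs and 6.84, 5.15 and 4.5 CPM in air L lungs. Both Ccr1 ligands thus had their highest group median in 1000 ug/m3 lungs of day 7 or in air H lungs of day 27. Ccl5 had medians of 22.5, 18.2 and 21.1 CPM in 1000 ug/m3 lungs, 19.9, 17.2 and 29.1 CPM in air H lungs, 22.3, 23.6 and 27.9 CPM in 200 ug/m3 lungs and 19.2, 20.6 and 25.7 CPM in air L lungs. Ccl3 medians were 3.6, 5.52 and 2.42 CPM in 1000 ug/m3 lungs, 3.19, 5.47 and 4.96 CPM in air H lungs, 3.36, 3.13 and 4.96 CPM in 200 ug/m3 lungs and 3.25, 3.46 and 4.32 CPM in air L lungs.

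Ccl4, the other macrophage inflammatory protein, had medians of 1.76, 4.4 and 2.78 CPM in 1000 ug/m3 lungs, 2.4, 2.66 and 3.51 CPM in air H lungs, 1.72, 3.1 and 3.61 CPM in 200 ug/m3 lungs and 1.06, 2.72 and 3.51 CPM in air L lungs. The monocyte attractant Ccl2 had medians of 1.94, 3.49 and 2.52 CPM in 1000 ug/m3 lungs, 2.97, 4.9 and 2.79 CPM in air H lungs, 3.86, 3.12 and 3.35 CPM in 200 ug/m3 lungs and 5.96, 3.1 and 2.35 CPM in air L lungs. Neither reached 10 CPM as a group median.

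Among the eosinophil attractants, Ccl11 medians were 13.3, 11.1 and 19.4 CPM in 1000 ug/m3 lungs, 14.7, 13.9 and 14.2 CPM in air H lungs, 7.95, 14.9 and 16.4 CPM in 200 ug/m3 lungs and 12.6, 13.8 and 15.1 CPM in air L lungs. Single lungs ran from 2.09 to 48.8 CPM, while the 12 groups were not called different. Lymphatic Ccl21 had medians of 67.3, 80.3 and 83.2 CPM in 1000 ug/m3 lungs, 68.4, 64.2 and 84.6 CPM in air H lungs, 88.9, 84.1 and 78.7 CPM in 200 ug/m3 lungs and 71.9, 76.6 and 78.3 CPM in air L lungs.

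Homeostatic Cxcl12 had medians of 121, 132 and 79.7 CPM in 1000 ug/m3 lungs, 132, 111 and 104 CPM in air H lungs, 119, 102 and 113 CPM in 200 ug/m3 lungs and 109.8, 113 and 91.3 CPM in air L lungs. Cxcl14 medians were 46.1, 40.7 and 49.5 CPM in 1000 ug/m3 lungs, 53.8, 45 and 43.5 CPM in air H lungs, 58.3, 44.8 and 39 CPM in 200 ug/m3 lungs and 62.7, 50.4 and 37.8 CPM in air L lungs. In air L lungs the day 27 median of Cxcl14 was its lowest. Cxcl16 lay within a narrow range, with medians of 73.1, 93.3 and 90.6 CPM in 1000 ug/m3 lungs, 79.6, 91.1 and 82.6 CPM in air H lungs, 85.6, 84.9 and 81 CPM in 200 ug/m3 lungs and 77.7, 87.6 and 75.5 CPM in air L lungs.

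Between animals of 1 group, the tested chemokines had a higher coefficient of variation than the typical gene. This coefficient is edgeR's biological coefficient of variation, the relative SD between animals beyond counting noise. Its median over the tested members was 0.152 at day 1, 0.194 at day 7 and 0.208 at day 27, against 0.116, 0.102 and 0.0994 over all genes tested. It was above the all-gene median for 9 of 12, 16 of 17 and 18 of 19 members. Some low members did not stand so high among the 500 genes nearest in level. There Ccl27 was above 26.1% at day 7 and 2% at day 27, against 85.5% and 59.6% of all genes, and Ccl4 at day 7 was above 25%, against 79.7% of all genes. Other low members did stand high there, such as Cxcl6 above 95.6% at day 27 and Ccl3 above 84.8% and 86.4% at days 7 and 27.

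Of the members tested at every time, some also spread widely and others did not. Ccl6 had a coefficient of 0.185, 0.231 and 0.277 at days 1, 7 and 27, above 88.3%, 91.1% and 95.6% of all genes tested and above 96.6%, 98.6% and 99.8% of the 500 nearest in level. Ccl11 had 0.293, 0.493 and 0.253, and single lungs of the 200 ug/m3 group of day 7 ran from 8.79 to 48.8 CPM. Cxcl1 had 0.344, 0.285 and 0.213, and was the most variable member at day 1. Cxcl16 had 0.104, 0.0678 and 0.0765, above 36.4%, 13.5% and 26.9% of all genes and above 57.1%, 31.7% and 49.5% of the 500 nearest in level. Cx3cl1 was steady at day 1 (0.0796) and more variable at day 7 (0.143) and day 27 (0.241).

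Within groups, some members followed the markers of a cell type from animal to animal. For 20 pairs, of which 5 were added after levels were seen, group means were taken away from the log2 CPM of the 69 animals of normal depth and correlations were tested with 100000 permutations within groups, two-sided, with Benjamini-Hochberg adjustment over the pairs. Pearson's r passed for 5 pairs, and 4 of these also passed with Spearman's rho. Ccl6 went with the mean of 10 alveolar macrophage markers (r = 0.67, rho = 0.61, adjusted permutation p = 2.00e-04 for both), and r was 0.60 without the 2 animals farthest out. Within days it was 0.65, 0.69 and 0.70 at days 1, 7 and 27.

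Ccl5 went with the mean of 9 NK and cytotoxic markers (r = 0.59, adjusted permutation p = 2.00e-04; rho = 0.56, adjusted p = 2.67e-04), with r of 0.69, 0.42 and 0.59 within days 1, 7 and 27 and 0.64 without the 2 farthest animals. With 9 T cell markers the r of Ccl5 was 0.03 (adjusted permutation p = 0.936). Of the added pairs, Cxcl3 went with 9 type II pneumocyte markers (r = 0.51, rho = 0.54, adjusted permutation p = 2.67e-04 and 2.00e-04), with r of 0.25, 0.76 and 0.75 within days and 0.56 without the 2 farthest. With its paralog Cxcl1 the r of Cxcl3 was 0.02 (adjusted permutation p = 0.936).

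Ccl6 and Ccl9, an added pair, gave r = 0.48 and rho = 0.48 (adjusted permutation p = 0.0012 and 0.00100), r = 0.50 without the 2 farthest animals, and 0.40, 0.63 and 0.47 within days. Cxcl1 and Ccl2 passed by r alone (r = 0.35, adjusted permutation p = 0.0492; rho = 0.27, adjusted p = 0.107), and r was -0.09 within day 7, so this relation did not hold within every day. Cxcl12 with 7 vascular endothelial markers passed by rho alone (r = 0.29, adjusted permutation p = 0.0711; rho = 0.34, adjusted p = 0.0281). Cx3cl1 and Cxcl17, low together in the H set of day 7, had r = 0.17 within groups (adjusted permutation p = 0.391). Pairs that are induced together in inflammation did not pass, with r of 0.22 for Cxcl9 and Cxcl10, 0.31 for Ccl3 and Ccl4 and 0.07 for Ccl2 and Ccl7. These genes have few counts.

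**Figure D5:**
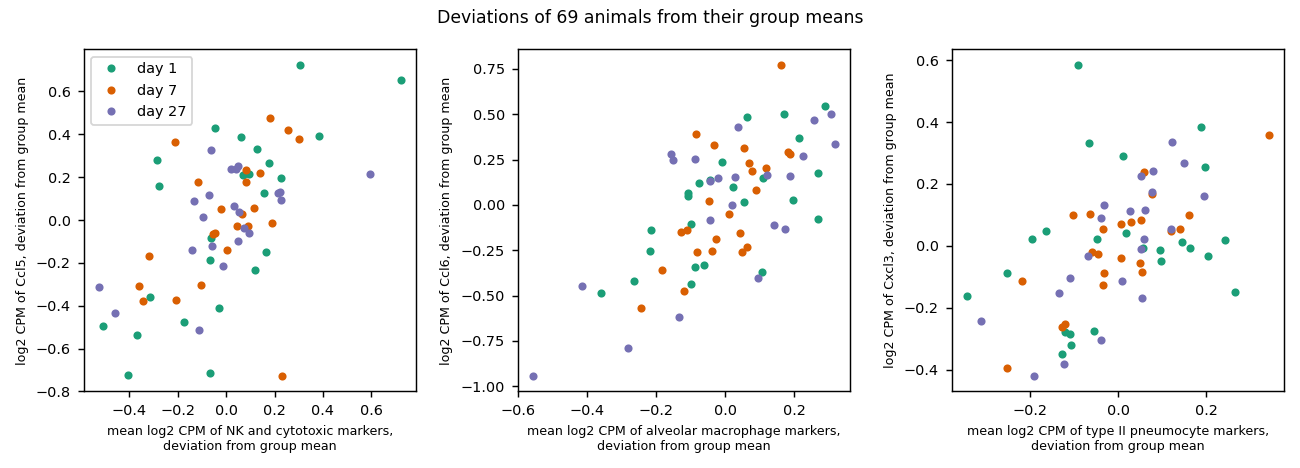
Deviations of 69 animals from their group means in log2 CPM, for Ccl5 against NK and cytotoxic markers, Ccl6 against alveolar macrophage markers and Cxcl3 against type II pneumocyte markers, coloured by day. The r values are 0.59, 0.67 and 0.51, and the Cxcl3 cloud is loosest at day 1 (r = 0.25).

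The chemokine receptors were read as the receiving side of the system, and 21 of 23 listed receptors were in the table. With 8 tested at day 1 and 17 at days 7 and 27, 0 were called in the 6 exposure comparisons, where at most 0.00698% of all genes were. At an unadjusted p under 0.05 there were 0, 1 and 2 for 1000 ug/m3 at days 1, 7 and 27, against 3.41%, 4.39% and 7% of all genes. For 200 ug/m3 there were 2, 0 and 1, against 6.02%, 5.71% and 9.69% of all genes. Between air lungs of day 7, 2 of 17 receptors were called, both higher in air H lungs, where 10.3% of all genes were called higher. These were Ccr7, the receptor of Ccl19 and Ccl21 (log2 fold change 0.44, SE 0.15, adjusted p = 0.0247), and Cxcr4, the receptor of Cxcl12 (log2 fold change 0.29, SE 0.11, adjusted p = 0.0459). In 1000 ug/m3 lungs of day 7, Cxcr4 (log2 fold change 0.45, SE 0.11, adjusted p = 0.00255) and Ccr1 (log2 fold change 0.38, SE 0.14, adjusted p = 0.0494) were higher than in 200 ug/m3 lungs, where 11.7% of all genes were called higher. Ccr1 binds Ccl3, and in the mouse also Ccl6, which were the ligands higher in the same comparison. Cx3cr1, the receptor of Cx3cl1, was not called between the sets at day 7. All 19 lists of receptors, pathways and cell type markers had 0 called genes in the 6 exposure comparisons. The median log2 fold change of the tested neutrophil markers was 0.04, -0.01 and -0.31 for 1000 ug/m3 and -0.09, -0.22 and -0.20 for 200 ug/m3 at days 1, 7 and 27. For the tested interferon-induced genes (16, 16 and 17), which include known companions of Cxcl10, it was 0.18, 0.02 and 0.09 for 1000 ug/m3 and -0.42, -0.48 and -0.14 for 200 ug/m3, against all-gene medians of -0.0012 to 0.0013. Within groups, Cxcl10 did not go with the mean of 17 interferon-induced genes (r = 0.04, rho = 0.08, adjusted permutation p = 0.936 and 0.667). Its r was -0.03, -0.10 and 0.31 within days 1, 7 and 27.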

How the data were processed

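The authors deposited 1 table of read counts per gene for 72 libraries (whole numbers, not normalised). Per the labels' protocols, ribosomal RNA was depleted and the kit keeps strand. Per the submitters' processing notes, which do not say what each was used for, the tools were HISAT2 2.1.0, HTSeq 0.6.1, SAMtools 1.8, Trimmomatic 0.35 and bcl2fastq 2.19, and the build was Rnor_6.0. No source used here gives the strand setting or the gene annotation behind the counts, so reads of overlapping genes, antisense genes and near-identical paralogs cannot be assigned with certainty.

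Counts were tested as deposited with edgeR 4.0.16 in R 4.3.3 (robust quasi-likelihood test, TMM factors, filterByExpr by group, Benjamini-Hochberg over all genes tested, threshold 0.05), in 1 fit of 24 libraries per day, 1 of the 36 air libraries and 2 of all 72. The procedure was tested on simulated data with known changes. DESeq2 1.42.0 and limma 3.58.1 (voom), other scalings, filters and fits, leaving out each animal and leaving out the shallow libraries were the alternatives. The members and all gene lists were chosen with earlier results of these data known. Full values are given for members tested at all 3 times with a mean of at least 5 CPM in air lungs and for called members, and a comparison with no call names its smallest p as a value. Ccl5 at day 27 is given besides for its lack of overlap. The share of all genes without overlap was not counted for any comparison. Animals are the replicates and 0 of 180 pairs of libraries within groups held identical counts. Counting error alone limits a gene at 0 to 3 counts of the library. Promoters came from RefSeq on GRCr8, not the build of the counts, and 28 of 34 members matched. The values of 1 receptor are not reported here.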

Additional observations from a re-analysis of the deposited data

Results flagged for a closer look

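Single animals stood apart from their group of 6 in 12 of 180 groups examined, 15 members in 12 groups, by a gap test at the 95% level, which picks out about 1 in 20 groups by chance. At day 1, Ccl11 was 36.9 CPM in animal 007 of the 1000 ug/m3 group, against 10.6 to 17.1 CPM in the others, and 9.21 CPM in animal 002 of the air H group, against 14.4 to 15.3 CPM. Ccl2 was 10.2 CPM in animal 001 of the air H group of day 1, against 0.688 to 3.07 CPM. Animal 060 of the 200 ug/m3 group of day 1 was high for Ccl4, at 4.97 CPM against 0.643 to 1.94 CPM, and for Cxcl3, at 414 CPM against 221 to 280.3 CPM.

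At day 7, Ccl6 was 170.2 CPM in animal 034 of the air H group, against 71.5 to 105 CPM. Ccl5 was 28.2 CPM in animal 066 of the air L group, against 19.1 to 22.4 CPM, and Cxcl1 was 23.7 CPM in animal 076 of the 200 ug/m3 group, against 9.75 to 14.1 CPM. Cxcl3 was low in animal 014 of the 1000 ug/m3 group of day 7, at 380.2 CPM against 468.5 to 500.9 CPM, and in animal 021 of that dose at day 27, at 365 CPM against 492 to 532 CPM. In animal 037, the shallow library of the 1000 ug/m3 group of day 7, Ccl5 was 0 CPM against 14.9 to 21.1 CPM, and Ccl9 was 25.9 CPM against 7.81 to 9.99 CPM. At 105453 counts, a count of 0 allows up to 25.9 CPM (3 counts, counting error only), so the Ccl5 value does not lie beyond counting error.

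The change between days in air lungs differed between the H and L sets for 5 members, in the added edgeR test. For day 7 against day 1 the H change minus the L change was -0.77 for Cx3cl1 (adjusted p = 0.00886) and -0.79 for Cxcl17 (adjusted p = 0.0102), on the log2 scale. For day 27 against day 7 it was 1.40 for Cx3cl1 (adjusted p = 6.15e-08), 1.26 for Cxcl17 (adjusted p = 6.80e-06), 1.8 for Cxcl10 (adjusted p = 0.0136), 0.60 for Ccl5 (adjusted p = 0.0160) and 0.43 for Cxcl14 (adjusted p = 0.0310).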

How the results depend on the processing

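Of 867 recomputed values, 830 were labelled the same, 13 lost a call, 4 gained a call, 20 moved and 0 reversed. For fold changes the same means the same direction and side of the threshold, and for counts and mean levels it means within set limits. A correlation was the same where r moved by less than 0.1, and reversed only where a called r changed sign. Some uncalled correlations did change sign, such as Ccl2 with Ccl7, from 0.07 to -0.015 with a prior count of 0.5. The 0 members called in the exposure comparisons stayed 0 in every alternative fit. Between air H and air L lungs, 1 member was called at day 27 (Ccl9) with a threshold of 0.1, with DESeq2, with non-robust dispersions and with all 72 libraries in the fit, and 1 at day 1 (Cxcl3) with all 72 libraries. At day 7, Cxcl10 joined the other 2 there, which makes 3, with the 1 CPM filter, with no filter and with all 72 libraries. Between days, 7 members were called in air H lungs of day 27 against day 7 at a threshold of 0.1, and 1 in air L lungs of day 7 against day 1 with limma-voom. Between 1000 and 200 ug/m3 lungs of day 7, 2 members were called with only the second animal number series of the H set. Ccl3 and Ccl6 lost their calls there, with adjusted p-values of 0.516 and 0.127. That series holds fewer animals, and its exposed lungs of day 7 were those of animal 038 and of the shallow animal 037. The cause of these and the other moves was not tested. Between 1000 and 200 ug/m3 lungs, leaving out each animal in turn gave 0 to 2 calls at day 1 (2 without animal 060). It gave 4 to 6 at day 7 and 0 to 0 at day 27. Between air lungs it gave 0 to 1, 2 to 2 and 0 to 1 at days 1, 7 and 27. Among the air animals compared, the call at day 1 came without animal 053 and that at day 27 without animal 041. At day 1, leaving out an exposed animal of the same fit also gave the call of Cxcl3 (lowest edgeR adjusted p 0.04174, against 0.04285 without animal 053). The 9 exposure and dose-difference comparisons gave 0 to 0. No paired analysis was possible because no animal number recurs between the groups and the labels pair no animals. No scaling moved the median of all genes by more than 0.1 on the log2 scale. At day 1 depth left 12 members testable, and members with a few counts per library allow no firm comparison.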

Other observations

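In the shallow libraries a few counts make high CPM values of members that are otherwise low. Ccl24, an eosinophil attractant, stood at 34.5 CPM in animal 037, which is 4 counts, against a range of 1.09 to 4.56 CPM in the other 5 lungs of the 1000 ug/m3 group of day 7.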
